A study of Rattus norvegicus with 372 samples.

Results

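The genes described here are 33 genes of the lysosome. They comprise 16 acid hydrolases, 4 genes grouped as cofactors of hydrolases, 5 membrane proteins and 6 subunits of the proton pump. The transcription factor Tfeb and the autophagy receptor Sqstm1 complete the list. The 4 called cofactors are Psap, Gm2a, Grn and Npc2, of which Npc2 is a carrier of cholesterol and not a cofactor of a hydrolase. The 33 genes were chosen by name: a gene is a member where its symbol in the probe tables matched the list. The list was drawn up with earlier results of these data known. The whole transcriptome (WT) assay held a probe for 32 of the 33 among its 20946 gene symbols, and the surrogate S1500+ (ST) assay held one for 18 among its 2604. Atp6v1h, a pump subunit, was measured by neither. Glb1 (beta-galactosidase) gave 404 counts over all WT wells and Gusb (beta-glucuronidase) gave 5, so both stayed under the filter of a mean of 10 counts. Tests were therefore possible for 30 genes, among them 14 hydrolases and 5 pump subunits.

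Lysosomes are the acidic compartment in which cells break down proteins, glycans and lipids that arrive by endocytosis or autophagy. Most of its hydrolases work best at low pH, which a vacuolar ATPase keeps up: its V1 sector splits ATP in the cytosol and drives protons through the V0 sector in the membrane. Many genes of the organelle carry an E-box type element in their promoters that Tfeb and its relatives bind, and Tfeb itself is held in the cytosol by phosphorylation, so that its activity is not read from its own mRNA. Hepatocytes are rich in lysosomes, which recycle their proteins, glycogen and lipids.

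Expression was measured by TempO-Seq, in which pairs of detector oligos are ligated on their target mRNA and counted by sequencing. The cells were primary hepatocytes of male Wistar rats in a collagen sandwich, and chemicals were given for 24 h in medium with 0.5% DMSO. Batch 1 and batch 2 were 2 isolations from different rats, with separate libraries and sequencing, so the rat and the run cannot be told apart. Each treatment had 3 wells in each batch, which were technical replicates of 1 rat. The vehicle control (0.5% DMSO) had 3 wells in batch 1 and 6 in batch 2, and medium alone had the same numbers. The low and high concentrations in µM were 80 and 2000 for naproxen, 400 and 10000 for isoniazid, caffeine, acetaminophen and valproic acid (labelled Valproic), and 2.4 and 60 for simvastatin. They were 16 and 400 for diclofenac, 0.08 and 2 for doxorubicin, 160 and 4000 for ranitidine, and 0.6 and 15 for ketoconazole. They were 8 and 200 for WY14643, an agonist of PPAR alpha, 12 and 300 for indomethacin, 4 and 100 for sulfasalazine, and 18 and 450 for chloramphenicol. All 29 comparisons (28 treatments and medium alone) used the same vehicle wells of their batch, and in batch 1 these stood on 1 of its plates only. Ketoconazole, WY14643, acetaminophen, indomethacin, sulfasalazine and chloramphenicol stood on the other plate of batch 1. In that batch their effects cannot be told apart from that of the plate.

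WT wells held 2289425 to 8975207 counts and ST wells 558190 to 2210264. The lowest WT total was that of 1 medium well of batch 2, where the other 5 held 6305494 to 7818048. All 7 hepatocyte markers checked were expressed, with a sum of 35384 to 40078 normalised CPM (counts scaled to a common library size) in the vehicle wells of batch 1 and 37347 to 42701 in batch 2. All 9 markers of Kupffer cells, the macrophages of the liver, were detected, with a sum of 52.5 to 65.7 CPM in batch 1 and 32.9 to 43.8 CPM in batch 2. For stellate and endothelial cells 6 of 7 markers were measured, and their sum was 75.2 to 126 CPM in batch 1 and 20.7 to 32.2 CPM in batch 2. In such lysates fewer cells of a type and less RNA per cell cannot be told apart. Levels are not compared between genes, because probes differ in efficiency.

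The E-box core CACGTG was searched in the 300 bases around the gene start (250 before, 50 after) that RefSeq gives for 28 of the 33 genes on the rat assembly GRCr8. The core reads the same on both strands. It lay in 6 of the 28 promoters (21.4%) and in 6.42% of all 33469 promoters. The longer form TCACGTG, searched on both strands and containing the core, lay in the same 6 (21.4%) and in 3.20% of all promoters. These 6 stretches are shown because the element is the one Tfeb binds. They are written 5′ to 3′ on the gene's strand, with up to 30 bases on each side of the cores and no base beyond the gene start, and capitals mark each core with a T before it or an A after it where present.
Lamp1 (chr16:83075066-83075276, minus strand): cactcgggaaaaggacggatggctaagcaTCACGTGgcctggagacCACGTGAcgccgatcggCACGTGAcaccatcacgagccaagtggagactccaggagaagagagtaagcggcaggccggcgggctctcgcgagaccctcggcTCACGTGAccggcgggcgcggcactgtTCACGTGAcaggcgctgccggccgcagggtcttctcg
Ctsd (chr1:206968822-206969008, minus strand): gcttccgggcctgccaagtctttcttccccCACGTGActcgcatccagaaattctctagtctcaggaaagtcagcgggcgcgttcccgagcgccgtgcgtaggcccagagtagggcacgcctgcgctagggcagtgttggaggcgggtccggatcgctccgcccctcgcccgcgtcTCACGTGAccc
Atp6v0d1 (chr19:50357265-50357330, minus strand): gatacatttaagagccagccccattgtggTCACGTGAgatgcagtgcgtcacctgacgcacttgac
Gaa (chr10:105028258-105028323, plus strand): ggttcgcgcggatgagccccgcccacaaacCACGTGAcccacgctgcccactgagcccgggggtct
Glb1 (chr8:122963588-122963653, plus strand): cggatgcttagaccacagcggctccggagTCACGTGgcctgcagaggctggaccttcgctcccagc
Mcoln1 (chr12:6358206-6358257, plus strand): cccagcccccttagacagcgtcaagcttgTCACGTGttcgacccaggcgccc
Lamp1 held 5 cores, the first 183 and the last 38 bases before the gene start. Ctsd held 2, and Mcoln1 held 1 before the start and another after it. The other 22 promoters did not hold these letters in this window. The deposited counts were made on the older build rn6, and a match is a description of letters, not of binding.

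At the 14 high concentrations, 143 of the 420 tests on the lysosomal genes were higher than vehicle and 76 were lower, at an adjusted p under 0.05 of edgeR's quasi-likelihood test over all 10191 genes tested. These are 34.0% and 18.1% of the tests, beside 25.4% higher and 25.5% lower over all genes. With 1 library per rat in place of single wells, 113 were higher and 55 lower, beside 18.5% and 18.3% of all tests. The ST assay gave 79 higher and 42 lower of 210 tests on the 15 genes it could test, beside 27.9% and 29.7% of all its tests. All 30 genes passed the test at some high concentration: 18 of them in both directions with different chemicals, 9 only higher and 3 (Ctsh, Ctss and Ctsz) only lower. The matching counts over all genes were not made. With 25.4% of all tests higher and 25.5% lower, these counts are not read as particular to the lysosomal genes. Of the 219 calls, 56 had an absolute L2FC (log2 fold change against vehicle) of at least 1.

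**Figure D1:**
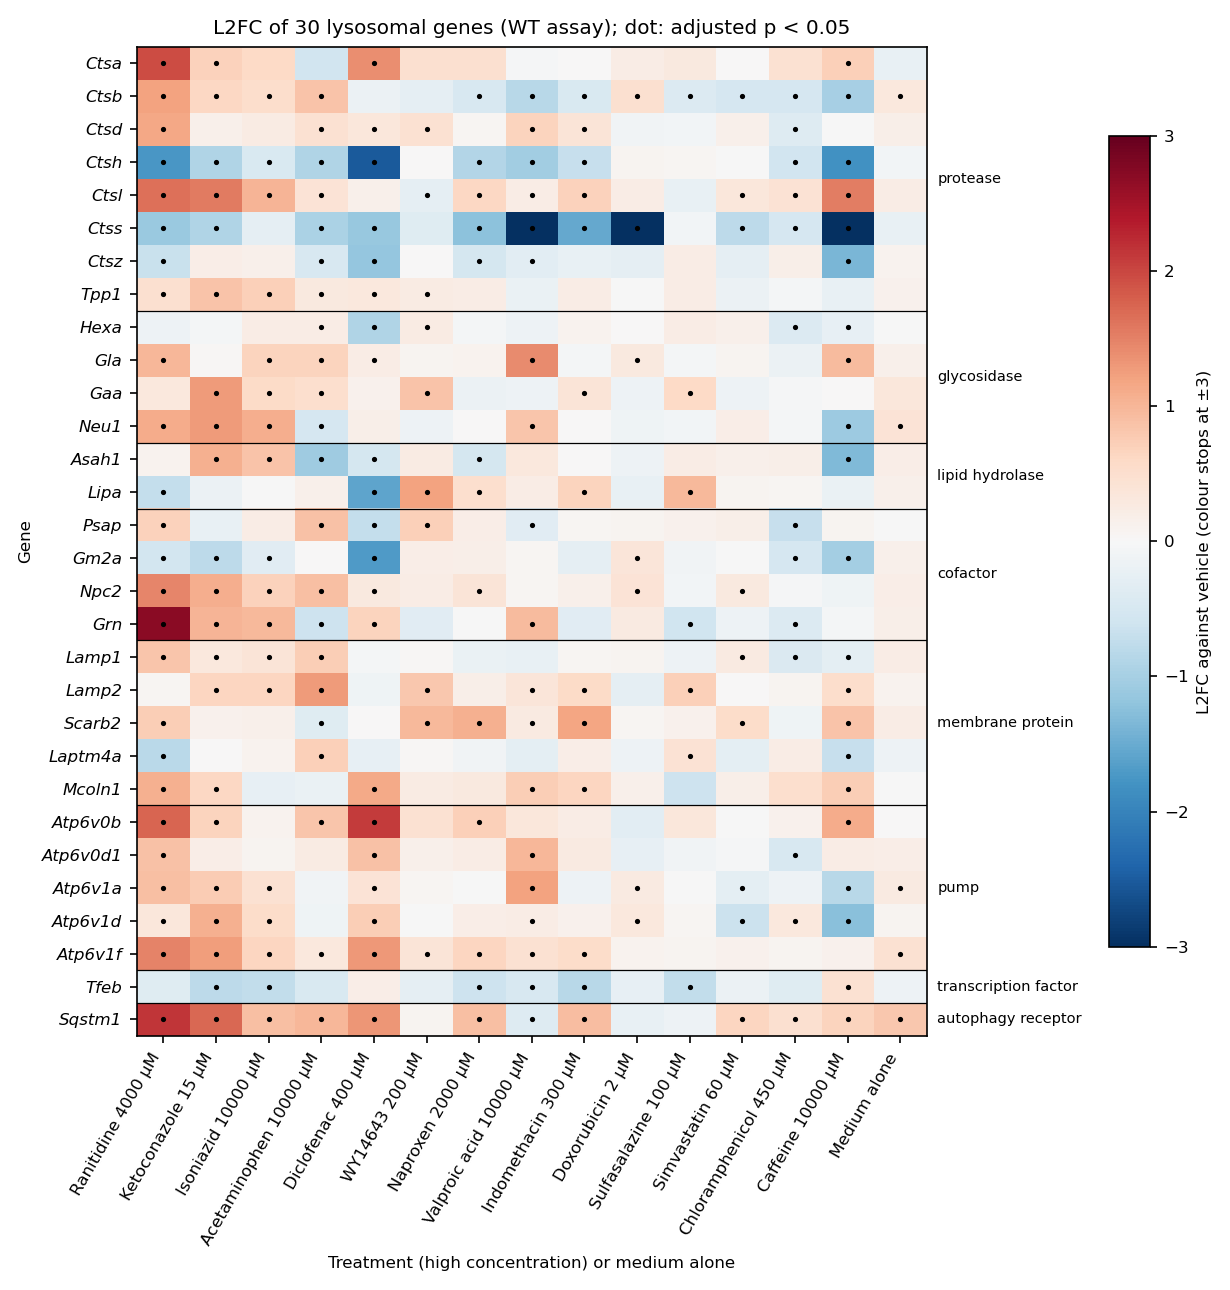
L2FC against vehicle (colour, log2 scale, stopping at 3 in either direction) of the 30 lysosomal genes tested, in rows by role, at the 14 high concentrations and in medium alone, in columns. A dot marks an adjusted p under 0.05; Sqstm1 and the pump subunits carry mostly positive values with ranitidine, ketoconazole and diclofenac, while Ctsh and Ctss carry mostly negative ones.

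The treatments differed in how many of the 30 genes they moved. Ranitidine, a blocker of histamine H2 receptors, gave 19 higher and 6 lower, where 32.3% and 33.9% of all genes were called. Ketoconazole, an azole antifungal, gave 17 higher and 4 lower (25.0% and 26.3% of all genes). Isoniazid gave 15 higher and 3 lower (17.4% and 17.3%). Diclofenac gave 13 higher and 8 lower (36.0% and 35.8%). Caffeine was the treatment with the most lower calls, 9 higher and 12 lower (34.6% and 31.6%), and chloramphenicol gave 3 higher and 10 lower (16.1% and 17.2%). Doxorubicin gave 6 higher and 1 lower (9.07% and 10.3%), naproxen 7 and 6 (27.6% and 26.2%) and simvastatin 5 and 4 (11.4% and 12.5%). Doxorubicin gave 0 higher and 1 lower with 1 library per rat, simvastatin 2 and 1, and chloramphenicol 1 and 4. Of the 7 hepatocyte markers, all 7 fell with ranitidine (median L2FC -1.87), diclofenac (-2.56) and valproic acid (-1.66), and 6 fell with ketoconazole (-1.15), isoniazid (-0.66) and naproxen (-1.42). With caffeine 4 fell and 2 rose (-0.77), with doxorubicin 4 fell (-0.59), and with chloramphenicol 3 fell (-0.43). Their summed level with ranitidine was 15013 to 18710 CPM in batch 1 and 11348 to 13188 CPM in batch 2. With caffeine it was 22142 to 26314 CPM and 15403 to 22958 CPM, and with chloramphenicol 19619 to 30002 CPM and 19467 to 20888 CPM, all below vehicle. The part of these falls in the lysosomal results was not tested.

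In several treatments the split depended on the scaling. The default TMM factors set the median L2FC of all genes near 0. Without them the same median was -0.43 with acetaminophen, -0.24 with WY14643 at 200 µM, -0.14 with indomethacin, -0.13 with sulfasalazine and 0.27 with valproic acid. Acetaminophen gave 15 higher and 7 lower with the factors (38.8% and 40.1% of all genes) and 7 higher and 13 lower without them (26.4% and 53.8%). WY14643 gave 9 and 1 (26.0% and 25.4%) against 6 and 8 (14.9% and 42.6%). Indomethacin gave 9 and 4 (27.1% and 27.6%) against 7 and 9 (17.9% and 36.0%), and sulfasalazine 4 and 3 (21.3% and 19.6%) against 3 and 8 (13.9% and 30.6%). Valproic acid gave 12 and 7 (33.5% and 33.2%) against 16 and 3 (48.0% and 22.1%). The calls over all genes moved in the same direction as those of the lysosomal genes in these 5. Fitted with 1 library per rat, valproic acid gave 8 and 3, and sulfasalazine 3 and 1. The split of both also differed between the batches. Valproic acid gave 11 higher and 3 lower in batch 1 alone and 7 and 11 in batch 2 alone. Sulfasalazine gave 3 and 0 in batch 1 alone and 7 and 9 in batch 2 alone. The matching shares over all genes are not given for these fits. Without the factors simvastatin gave 3 higher and 5 lower (7.93% and 16.6% of all genes), and chloramphenicol 5 and 8 (29% and 11.4%). Changes are given below relative to the median gene. Of the single genes called, 3 turned their direction without the factors, Atp6v1f, Hexa and Tpp1 with acetaminophen.

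Calls of pump subunits were mostly higher, while those of hydrolases lay in both directions. Most of the lower hydrolase calls came from the proteases, chiefly Ctss, Ctsh and Ctsz. Calls of glycosidases and of membrane proteins, given below, were mostly higher as well. At the high concentrations 31 of 70 tests on pump subunits were higher and 5 lower, against 56 higher and 47 lower of 196 tests on hydrolases. These are 44.3% and 7.14% of the pump tests and 28.6% and 24.0% of the hydrolase tests, beside 25.4% and 25.5% over all genes. Without TMM factors the counts were 27 and 10 against 56 and 57, beside 23.8% and 28.4% over all genes. With diclofenac the groups parted most: all 5 subunits rose, with a median L2FC of 0.89, while 4 hydrolases rose and 6 fell, with a median of -0.03, and the median of all genes was 0.01. With ranitidine all 5 subunits rose (median 0.90), and 7 hydrolases rose and 4 fell (median 0.41). With ketoconazole 4 subunits rose (median 0.75), and 7 hydrolases rose and 2 fell (median 0.41). With valproic acid 4 subunits rose (median 0.45), and the hydrolases split 4 and 4 (median -0.09). The hydrolase median was the higher one with isoniazid (0.54 against 0.45 for the pump), simvastatin (0.05 against -0.04), sulfasalazine (0.14 against 0.06) and WY14643 at 200 µM (0.16 against 0.15). With acetaminophen the medians were 0.19 for hydrolases and 0.26 for the pump, and both turned negative without TMM factors (-0.22 and -0.14). With caffeine they were -0.24 and 0.12, the latter -0.01 without the factors. The difference between the groups was not tested, since the genes were a chosen list.

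**Figure D2:**
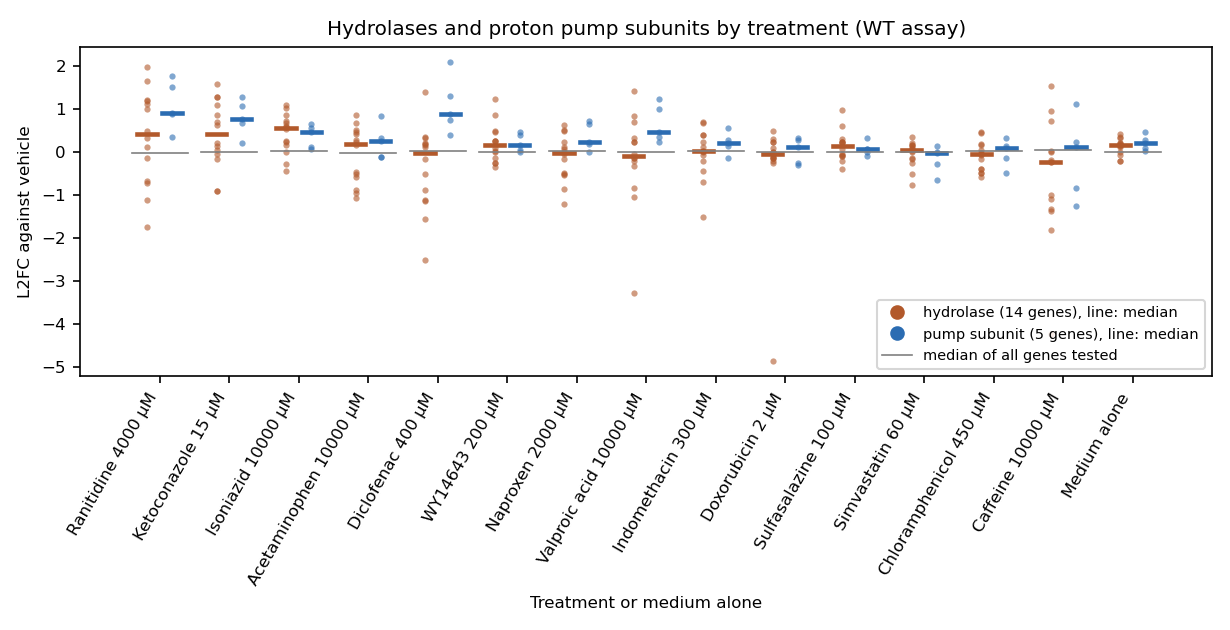
L2FC against vehicle (vertical axis, log2 scale) of 14 hydrolases and 5 pump subunits, 1 point per gene, at the 14 high concentrations and in medium alone. Coloured lines are group medians and the grey line is the median of all 10191 genes; the pump median stands 0.90 and 0.89 with ranitidine and diclofenac, and the hydrolase median 0.41 and -0.03.

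Among the pump subunits, Atp6v1f, the F subunit of the rotor of V1, rose at 9 high concentrations and fell at none. Its vehicle wells held 56.6, 57.7 and 61.4 CPM in batch 1 and 53.3 to 78.5 CPM in batch 2 (median 69.3). With ranitidine they held 150, 156 and 168 CPM in batch 1 and 194, 200 and 215 CPM in batch 2. Every ranitidine well lay above every vehicle well, with an L2FC of 1.5 ± 0.10 (SE, 6 wells against 9) and an adjusted p of 1.99e-32. With diclofenac (132, 165 and 168 CPM; 147, 162 and 168 CPM) the L2FC was 1.30, and with ketoconazole (134, 137 and 147 CPM; 152, 171 and 177 CPM) it was 1.26. Again no treated well reached down to the vehicle range. The ST probe gave L2FC of 1.84, 1.51 and 1.48 in the same order.

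Atp6v0b, a proton-carrying subunit of V0, rose at 6 high concentrations, most with diclofenac. It was close to the limit of detection, at 1.25, 1.53 and 1.56 CPM in the vehicle wells of batch 1 and 0.834 to 1.74 CPM in batch 2 (median 1.29), which are 5 to 13 counts a well. With diclofenac the wells held 2.57, 3.76 and 4.01 CPM in batch 1 and 5.44, 8.05 and 9.96 CPM in batch 2. The groups did not overlap, and the L2FC was 2.09 ± 0.26 (adjusted p = 9.06e-13). With ranitidine the wells held 3.48 to 4.71 CPM and 4.57 to 4.92 CPM (L2FC 1.75 ± 0.27). The call with acetaminophen (L2FC 0.83) came from batch 2 alone: it was -0.44 in batch 1 and 1.38 in batch 2, and the adjusted p was 0.105 with 1 library per rat and 0.159 after leaving out 1 well.

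Atp6v1d, the D subunit in the central stalk of V1, moved in both directions. Vehicle wells held 325, 344 and 395 CPM in batch 1 and 330 to 478 CPM in batch 2 (median 394). With ketoconazole they held 782, 814 and 833 CPM in batch 1 and 699, 730 and 895 CPM in batch 2, all above vehicle (L2FC 1.06 ± 0.09, adjusted p = 2.92e-20). With caffeine they held 154, 189 and 199 CPM in batch 1 and 125, 137 and 147 CPM in batch 2, all below vehicle (L2FC -1.26 ± 0.10, adjusted p = 3.18e-24). Atp6v1a, the catalytic A subunit, likewise fell with caffeine (-0.84) and rose most with valproic acid (1.22). Atp6v0d1, a V0 subunit that joins the rotor, rose with valproic acid (0.99), diclofenac (0.89) and ranitidine (0.87) and fell with chloramphenicol (-0.48).

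Another 10 subunits and accessory proteins of the pump were all tested. Of their 140 tests at the high concentrations 66 were higher (47.1%) and 19 lower (13.6%), beside 25.4% and 25.5% of all genes. Ranitidine gave 8 higher and 1 lower (32.3% and 33.9% of all genes), ketoconazole 7 and 1 (25.0% and 26.3%) and diclofenac 7 and 2 (36.0% and 35.8%). Doxorubicin gave 0 and 3 (9.07% and 10.3%). With acetaminophen 9 rose and 1 fell (38.8% and 40.1% of all genes), led by Atp6v1b2 (L2FC 2.28) and Atp6v1e1 (2.15). For this list the split without TMM factors, where the median of all genes with acetaminophen was -0.43, was not counted. Atp6v0e1, a small V0 subunit, gave 10 of the 19 lower tests, the lowest with valproic acid (-2.32), and rose with sulfasalazine (0.87).

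Among the cofactors, Grn, which encodes progranulin, the precursor of lysosomal granulins, rose most of all 30 genes. Its vehicle wells held 32.6, 47.3 and 47.7 CPM in batch 1 and 61.7 to 92.7 CPM in batch 2 (median 76.2). With ranitidine they held 336, 417 and 427 CPM in batch 1 and 272, 384 and 389 CPM in batch 2. All 6 wells lay above all vehicle wells, and the L2FC was 2.71 ± 0.15 (adjusted p = 2.10e-37), with 2.28 by the ST assay. The rise was larger in batch 1 (3.22) than in batch 2 (2.23), a difference of 1.01 that passed the test of the interaction of batch and treatment (adjusted p = 0.0113). Grn also rose with ketoconazole (1.03) and isoniazid (0.97), and it fell with acetaminophen (-0.61).

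Npc2, which carries cholesterol out of the lysosome lumen, rose at 8 high concentrations and fell at none. Vehicle wells held 95.3, 112 and 118 CPM in batch 1 and 134 to 174 CPM in batch 2 (median 158). Ranitidine wells held 328, 328 and 383 CPM in batch 1 and 379, 387 and 397 CPM in batch 2, without overlap (L2FC 1.47 ± 0.10, adjusted p = 2.53e-29). Ketoconazole gave 1.09 and acetaminophen 0.90. Gm2a, the GM2 activator that lifts gangliosides out of membranes for beta-hexosaminidase, went the other way. It fell at 6 high concentrations and rose at 1, most with diclofenac, from 124, 161 and 171 CPM in batch 1 and 118 to 162 CPM in batch 2 to 41.7, 51.5 and 65.5 CPM and 28.8, 37.9 and 44.1 CPM. The groups did not overlap, and the L2FC was -1.70 ± 0.14 (adjusted p = 8.85e-25). Psap, the precursor of the saposins, rose with acetaminophen (0.88), WY14643 (0.71) and ranitidine (0.68) and fell with diclofenac (-0.73), chloramphenicol (-0.68) and valproic acid (-0.34). With diclofenac, Gm2a and Psap fell along with Hexa (-0.90), the alpha subunit of beta-hexosaminidase.

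The glycosidases were higher in 19 of 56 tests (33.9%) and lower in 5 (8.93%), beside 25.4% and 25.5% of all genes. Without TMM factors 17 were higher and 9 lower, and in batch 2 alone 19 and 10. Neu1, the sialidase that removes terminal sialic acid, rose with ketoconazole from 147, 165 and 165 CPM in batch 1 and 169 to 192 CPM in batch 2 to 372, 389 and 440 CPM and 382, 429 and 453 CPM (L2FC 1.27 ± 0.10, adjusted p = 5.81e-24). It rose with ranitidine (1.12) and isoniazid (1.09) and fell with caffeine to 57.3, 67.4 and 80.5 CPM and 82.5, 84.1 and 107 CPM (L2FC -1.10 ± 0.11). None of these groups overlapped vehicle. Gaa, the acid alpha-glucosidase that degrades glycogen, rose with ketoconazole from 35.5, 42.5 and 48.2 CPM in batch 1 and 31.4 to 50.9 CPM in batch 2 to 105, 122 and 144 CPM and 62.8, 90.8 and 92.6 CPM (L2FC 1.27 ± 0.16, adjusted p = 5.32e-12). Gla, the alpha-galactosidase of glycosphingolipids, rose at 7 high concentrations, most with valproic acid. Its wells went from 48.3, 52.7 and 55.4 CPM in batch 1 and 54.9 to 75.8 CPM in batch 2 to 129, 147 and 157 CPM and 169, 170 and 191 CPM. The groups did not overlap, and the L2FC was 1.42 ± 0.08 (adjusted p = 1.13e-36).

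Of the lipid hydrolases, Lipa, the acid lipase of cholesteryl esters and triglycerides, rose with WY14643. Vehicle wells held 56.4, 59.8 and 65.1 CPM in batch 1 and 51.3 to 73.1 CPM in batch 2 (median 63.1). At 8 µM the wells held 189, 208 and 222 CPM in batch 1 and 170, 203 and 208 CPM in batch 2 (L2FC 1.70 ± 0.11, adjusted p = 7.94e-32), and at 200 µM 115, 132 and 154 CPM and 145, 149 and 163 CPM (L2FC 1.22 ± 0.11). Both groups lay wholly above vehicle. The direct comparison of 200 with 8 µM gave -0.48 ± 0.12 (adjusted p = 0.00446), but the adjusted p was 0.161 with 1 library per rat and 0.25 in batch 2 alone (-0.34). Diclofenac lowered Lipa to 18.2, 18.9 and 25.7 CPM and 19.1, 20.1 and 22.1 CPM (L2FC -1.57 ± 0.12, adjusted p = 4.44e-25). Asah1, acid ceramidase, fell with caffeine from 43.6, 54.2 and 55.3 CPM in batch 1 and 51.2 to 73.0 CPM in batch 2 to 18.5, 20.8 and 25.7 CPM and 20.0, 23.8 and 25.8 CPM (L2FC -1.33 ± 0.20, adjusted p = 7.65e-10). It fell with acetaminophen (-1.06) and rose with ketoconazole (1.08) and isoniazid (0.86).

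The proteases were higher in 31 of 112 tests (27.7%) and lower in 36 (32.1%), beside 25.4% and 25.5% of all genes. Ctsl, a cysteine cathepsin, rose at 10 high concentrations and fell at 1, with its highest L2FC for ranitidine (1.64 ± 0.10), ketoconazole (1.57) and caffeine (1.53). Ctsh, another cysteine cathepsin, fell at 10 and rose at none. Its vehicle wells held 272, 301 and 318 CPM in batch 1 and 241 to 346 CPM in batch 2 (median 287). With diclofenac they held 38.7, 49.3 and 76.1 CPM in batch 1 and 40.8, 50.1 and 53.5 CPM in batch 2, far below vehicle (L2FC -2.52 ± 0.13, adjusted p = 6.28e-41). Caffeine (-1.83) and ranitidine (-1.74) followed. So with ranitidine Ctsl rose while Ctsh fell in the same wells. Ctsz fell at 6, most with caffeine (-1.37). Ctsb, the cathepsin with an exopeptidase activity, rose at 5 and fell at 7, from 1.21 with ranitidine to -1.01 with caffeine. Ctsd, the aspartic cathepsin, whose promoter holds 2 cores, rose at 6 and fell at 1. Tpp1, tripeptidyl peptidase, rose at 6 and fell at none, with 0.86 for ketoconazole.

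Ctsa, a serine carboxypeptidase that also protects Neu1 in a complex, rose at 4 and fell at none. It was at 2.16, 3.24 and 3.75 CPM in the vehicle wells of batch 1 and 2.28 to 3.33 CPM in batch 2, and at 5.86, 10.9 and 13.2 CPM and 11.3, 11.7 and 14.6 CPM with ranitidine (L2FC 1.96 ± 0.25, adjusted p = 6.47e-12). The groups did not overlap.

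Ctss, a cathepsin best known from macrophages and other antigen-presenting cells, gave the largest fall of the 30 genes. Vehicle wells held 28, 30.01 and 40.2 CPM in batch 1 and 12.7 to 25.5 CPM in batch 2 (median 20.1). With doxorubicin they held 0.868, 1.98 and 2.12 CPM in batch 1 and 0, 0.143 and 0.880 CPM in batch 2, which are at most 15 counts a well (L2FC -4.86 ± 0.30, adjusted p = 4.55e-32). It fell with caffeine (-4.23) and valproic acid (-3.28) and in all at 11 high concentrations. The markers of Kupffer cells moved with it. Of 6 markers with enough counts, 5 fell with doxorubicin, 5 with caffeine and 5 with valproic acid, with median L2FC of -4.75, -3.32 and -3.85. They fell in other treatments too, 5 of 6 each with ranitidine (-2.58), acetaminophen (-1.80), diclofenac (-1.70), indomethacin (-1.53) and ketoconazole (-0.95). Col3a1, a collagen gene and the one stellate and endothelial marker that could be tested, fell with doxorubicin (-3.34), caffeine (-2.02) and valproic acid (-2.53), and at 10 high concentrations in all. The summed level of the markers was 4.74 to 8.68 CPM in batch 1 and 4.00 to 7.83 CPM in batch 2 with doxorubicin, against 52.5 to 65.7 and 32.9 to 43.8 in vehicle. The exception was Cd68, which also lies in the membrane of lysosomes of other cells: it rose at 7 high concentrations, among them acetaminophen (1.87), ranitidine (1.36), ketoconazole (1.16), valproic acid (0.81) and diclofenac (0.76), and was 0.06 with caffeine and -0.51 with doxorubicin (adjusted p = 0.130). None of the 9 markers was at 0 in every well of the study, and Adgre1, Marco and C1qa had too few counts to test. With isoniazid, where the marker median was -0.33, the Ctss value was -0.28 ± 0.20 (adjusted p = 0.283). The part of Kupffer and stellate cells in the Ctss values was not tested.

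**Figure D3:**
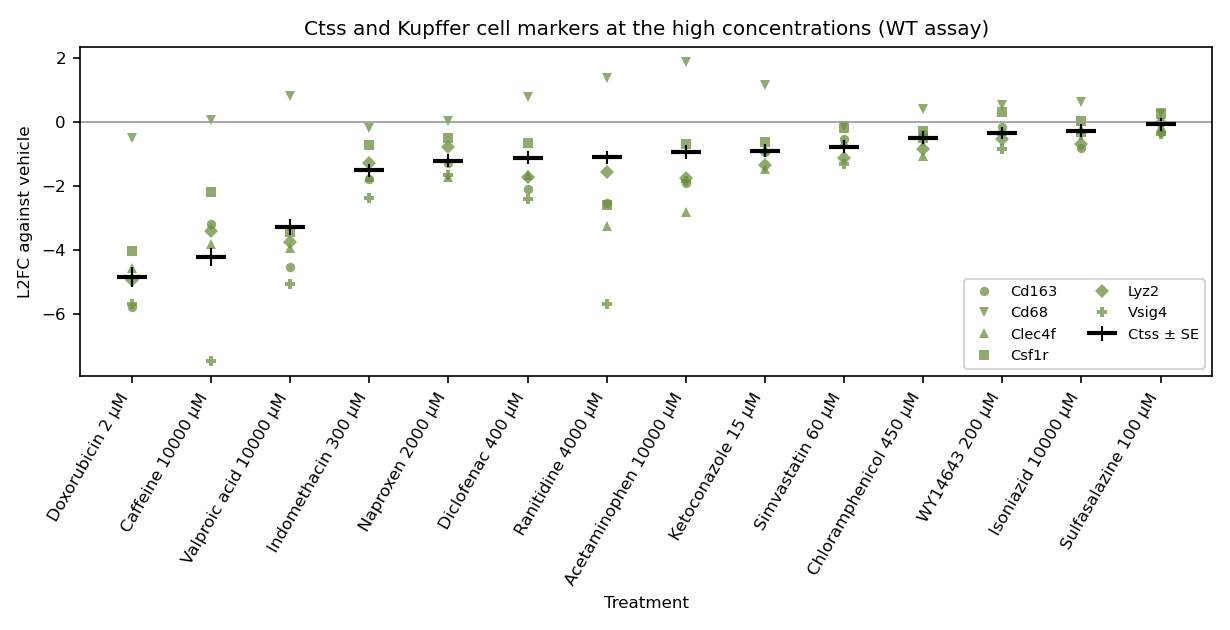
L2FC against vehicle (vertical axis, log2 scale) of Ctss (black, with its standard error) and of 6 Kupffer cell markers (green, 1 symbol per gene) at the 14 high concentrations. Ctss stands at -4.86, -4.23 and -3.28 with doxorubicin, caffeine and valproic acid, where the marker medians are -4.75, -3.32 and -3.85; the lowest Vsig4 values come from wells near 0 counts and are no bounds.

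Membrane proteins were higher in 28 of 70 tests (40.0%) and lower in 5 (7.14%), beside 25.4% and 25.5% of all genes. Lamp2, a major glycoprotein of the lysosomal membrane with a role in autophagy, rose at 8 high concentrations and fell at none. With acetaminophen its wells went from 45.9, 49.6 and 53.9 CPM in batch 1 and 34.9 to 57.0 CPM in batch 2 to 105, 109 and 118 CPM and 102, 133 and 138 CPM, without overlap (L2FC 1.27 ± 0.16, adjusted p = 6.43e-13). With ranitidine it was 0.06 ± 0.16 (adjusted p = 0.764), while its relative Lamp1 rose (0.84). Lamp1, whose promoter holds 5 cores, rose at 5 and fell at 2. Scarb2 (LIMP-2), which brings glucocerebrosidase to lysosomes, rose with indomethacin from 50.3, 59.9 and 61.4 CPM in batch 1 and 63.9 to 86.5 CPM in batch 2 to 124, 134 and 151 CPM and 135, 170 and 183 CPM (L2FC 1.18 ± 0.11, adjusted p = 1.58e-18), again without overlap. It also rose with naproxen (1.05) and WY14643 (0.98). Mcoln1, the cation channel TRPML1, was measured at 7 to 18 counts in vehicle wells. It rose at 6 high concentrations, most with diclofenac, where 2.09, 3.13 and 3.58 CPM and 2.84, 4.2 and 5.44 CPM stood against 0.841, 1.36 and 1.96 CPM and 1.07 to 3.00 CPM. In batch 2 the lowest diclofenac well lay within the vehicle range (L2FC 1.13 ± 0.24, adjusted p = 1.61e-05). Laptm4a rose with acetaminophen (0.70) and sulfasalazine (0.44) and fell with ranitidine (-0.80) and caffeine (-0.70).

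Of 10 other proteins of the lysosomal membrane and lumen on a related list, 8 could be tested. Of their 112 tests at the high concentrations 61 were higher (54.5%) and 15 lower (13.4%), beside 25.4% and 25.5% of all genes. Simvastatin gave 1 higher and 2 lower (11.4% and 12.5% of all genes) and doxorubicin 0 and 1 (9.07% and 10.3%). All 8 rose with ranitidine and all 8 with isoniazid, and 7 rose with ketoconazole and none fell (median L2FC 0.85, 0.53 and 0.85), where 32.3%, 17.4% and 25.0% of all genes rose. Clcn7, a chloride and proton exchanger, rose with diclofenac (1.79), as did Slc17a5, which exports sialic acid (1.31). Of 24 other hydrolases 18 could be tested, and of their 252 tests 70 were higher (27.8%) and 56 lower (22.2%), beside 25.4% and 25.5% of all genes. With diclofenac 1 was higher and 10 lower (36.0% and 35.8% of all genes). Manba (beta-mannosidase) fell with caffeine (-3.19) and Acp2 (acid phosphatase) with acetaminophen (-3.03), while Ctsk rose with acetaminophen (2.45). Of 6 genes that sort hydrolases to lysosomes, 5 fell with caffeine, where 31.6% of all genes fell, among them Sort1 (-2.76) and the mannose 6-phosphate receptor gene Igf2r (-1.70). Over the high concentrations 23 of the 84 tests on these 6 genes were higher (27.4%) and 27 lower (32.1%), beside 25.4% and 25.5% of all genes. The highest L2FC among them was 4.05, with valproic acid.

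Sqstm1 encodes p62, a receptor that hands ubiquitin-tagged cargo to autophagosomes and is itself a target of Tfeb and of NRF2. It rose at 10 high concentrations and fell at 1. Vehicle wells held 198, 200 and 210 CPM in batch 1 and 174 to 232 CPM in batch 2 (median 209). Ranitidine wells held 920, 1042 and 1177 CPM in batch 1 and 697, 853 and 907 CPM in batch 2 (L2FC 2.15 ± 0.12, adjusted p = 1.46e-39). Ketoconazole wells held 515, 522 and 644 CPM and 675, 806 and 892 CPM (L2FC 1.72 ± 0.12). Neither group came near the vehicle range. With valproic acid it fell by 0.39 on the log2 scale (adjusted p = 0.00246, and 0.0702 with 1 library per rat). Of 13 tested genes of autophagy, 8 rose and 2 fell with ranitidine, where 32.3% and 33.9% of all genes were called. With caffeine 8 rose and 1 fell (34.6% and 31.6% of all genes), and with valproic acid 8 rose and 2 fell (33.5% and 33.2%). With ketoconazole 2 rose and 3 fell (25.0% and 26.3%), the latter Nbr1, Ulk1 and Wipi1. With caffeine Gabarapl1 (3.22) and Map1lc3b (2.78), which encode ubiquitin-like proteins of the autophagosome membrane, rose. Of 6 tested NRF2 targets, 27 of 84 tests were higher (32.1%) and 29 lower (34.5%), beside 25.4% and 25.5% of all genes. With ranitidine 3 rose and 2 fell (median 0.27), with ketoconazole 2 rose and none fell (0.17), with diclofenac 2 rose and 4 fell (-0.61), and with acetaminophen 4 rose and 1 fell (1.84). Of all genes 38.8% rose and 40.1% fell with acetaminophen, and 36.0% and 35.8% with diclofenac.

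Tfeb, the transcription factor, was itself lower at 6 high concentrations and higher at 1. Its probe gave few counts, at 2.90, 3.04 and 3.48 CPM in the vehicle wells of batch 1 and 3.28 to 4.63 CPM in batch 2. With indomethacin the wells held 1.17, 1.48 and 1.55 CPM in batch 1, all below vehicle, and 1.60, 2.65 and 3.30 CPM in batch 2, where the highest reached the vehicle range (L2FC -0.83 ± 0.22, adjusted p = 7.88e-04). With ketoconazole, where 17 lysosomal genes rose, the Tfeb L2FC was -0.77 ± 0.22, and with ranitidine it was -0.37 ± 0.21 (adjusted p = 0.113).

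**Figure D4:**
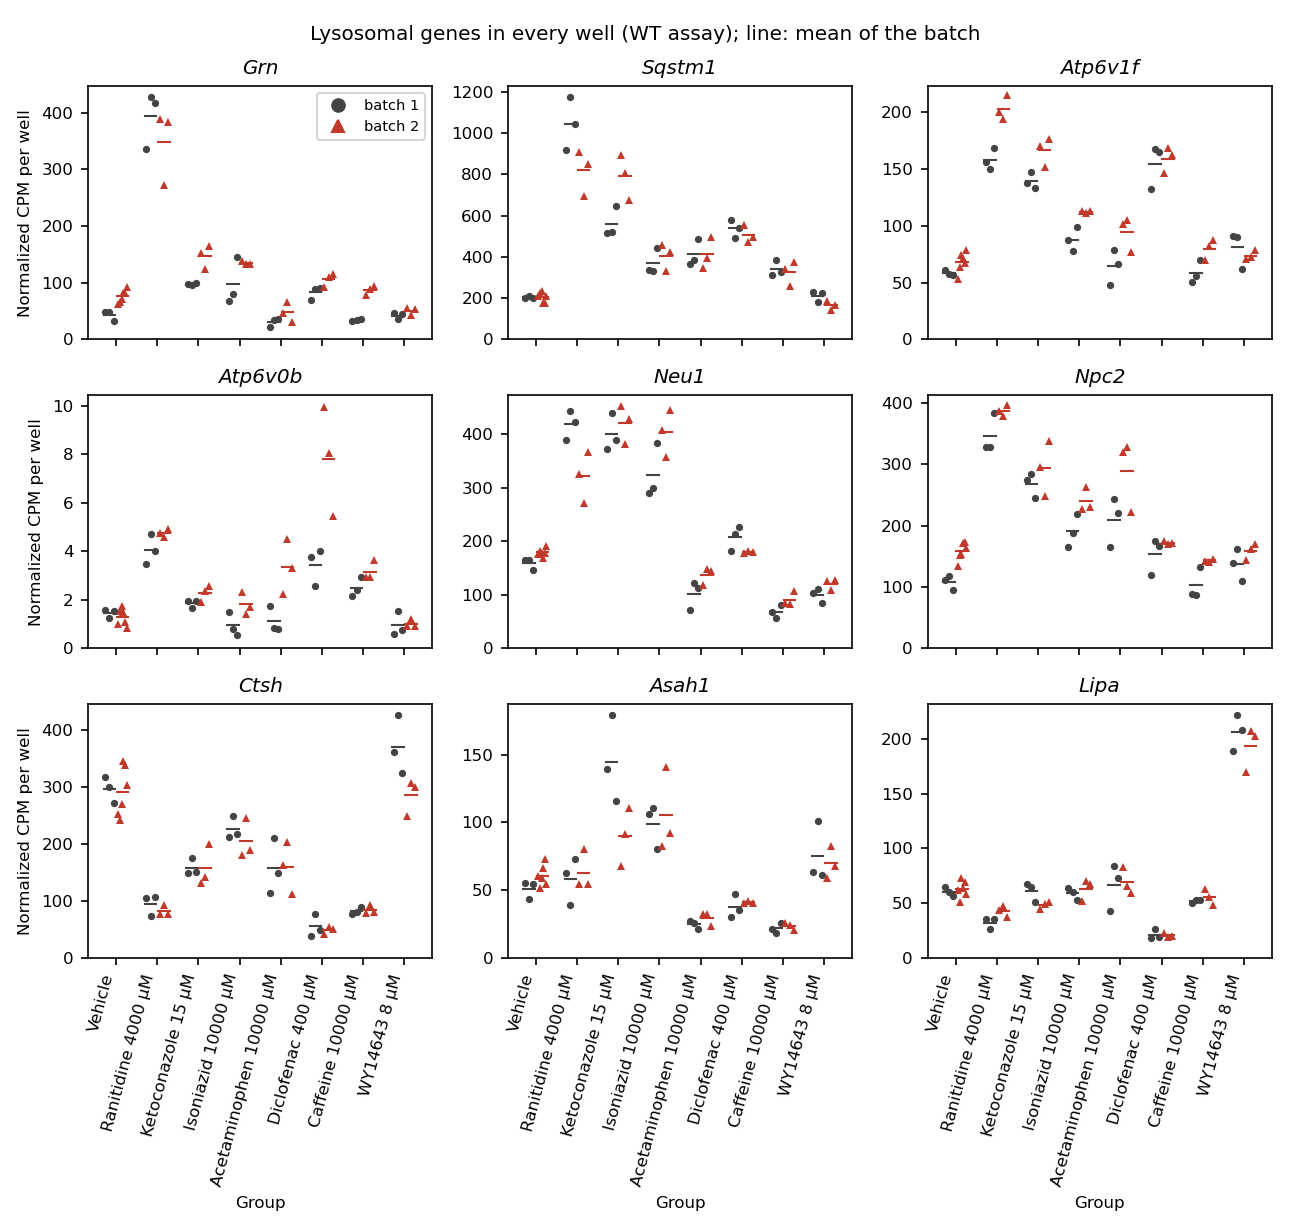
Normalised CPM (vertical axes, linear from 0) of 9 lysosomal genes in every well of vehicle and 7 treatments, circles for batch 1 and triangles for batch 2, with a line at each batch mean. Grn and Sqstm1 stand highest with ranitidine, Atp6v0b with diclofenac in batch 2, and Lipa with WY14643 at 8 µM, while Ctsh is lowest with diclofenac.

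At the 14 low concentrations 23 of 420 tests were higher and 9 lower, beside 4.91% and 4.5% of all tests, and without TMM factors 13 and 21 (3.34% and 7.08% of all tests). With 1 library per rat 12 tests passed the threshold. WY14643 at 8 µM gave 9 higher and 4 lower, where 28% and 28.2% of all genes were called, and 5 and 11 without TMM factors (15.5% and 47.6%). Valproic acid at 400 µM gave 8 and 3 (15.1% and 14.0% of all genes). Naproxen at 80 µM gave 5 and 0 (8.64% and 7.4% of all genes), and 1 and 1 without the factors (5.63% and 15.5%). These treatments gave 6 and 2, 2 and 1, and 1 and 0, in the same order, with 1 library per rat. Besides Lipa, WY14643 at 8 µM raised Lamp2 (1.08), Gaa (0.85), Psap (0.81) and Scarb2 (0.80) and lowered Neu1 (-0.63). Lipa also rose with naproxen at 80 µM (0.76) and valproic acid at 400 µM (0.64). The other calls were Laptm4a (0.44) and Ctsb (-0.44) with sulfasalazine at 4 µM (9.35% higher and 8.03% lower over all genes) and Ctss (-0.73) with doxorubicin at 0.08 µM (1.08% and 0.245%). All 3 lost their call with 1 library per rat, and Laptm4a also without TMM factors.

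High against low concentration of the same chemical gave 118 higher and 74 lower tests, beside 20.1% and 20.7% over all genes. Ranitidine gave 19 higher and 6 lower (28.9% and 28.6% of all genes), with L2FC of 2.33 for Grn, 1.95 for Sqstm1 and -1.73 for Ctsh. WY14643 gave 1 higher (Neu1, 0.47) and 1 lower (Lipa, -0.48), beside 2.52% and 3.22% of all genes, and neither passed with 1 library per rat. Sulfasalazine gave 2 higher and none lower, beside 7.57% and 5.29%, and 1 higher with 1 library per rat.

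Medium alone gave 5 genes higher than vehicle and none lower, beside 7.51% and 5.1% of all genes: Sqstm1 (0.81 ± 0.11, adjusted p = 9.67e-10), Atp6v1f (0.45), Neu1 (0.42), Ctsb (0.33) and Atp6v1a (0.28). With 1 library per rat, Sqstm1 alone stayed past the threshold (adjusted p = 0.0154). Without the medium well of fewest counts 4 genes passed. The Sqstm1 wells held 293, 326 and 359 CPM in batch 1 and 295 to 461 CPM in batch 2 (median 357), all above every vehicle well.

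Over the 420 tests at the high concentrations, called or not, 341 had the same sign in both batches. Of the 219 calls, which came from both batches together, 145 passed the test in each batch alone with the same sign. With 1 library per rat 168 stayed past the threshold, and 187 stayed so whichever single well was left out. The ST assay, which measured the same lysates and is a technical check, covered 108 of the calls, of which 107 had the same sign and 97 were called. The exception was Lamp1 with simvastatin (0.27 by WT, -0.09 by ST). Over all 210 ST tests at the high concentrations, called or not, 183 had the same sign by both assays. The effect differed between batches, by the interaction test, in 20 of the 420 tests on lysosomal genes at the high concentrations, beside 4.39% of all genes' tests. On its 2 plates batch 2 had separate vehicle wells, between which 0 of the 30 genes differed by edgeR (0.0% of all genes), and 5 had an unadjusted p under 0.05, as did 1423 of all 10191 genes (14.0%).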

How the data were processed

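TempO-Seq counts of 372 libraries (each well by the ST and the WT assay) were used. The authors demultiplexed the reads, aligned them to rn6 with STAR 2.5.3a (per the labels) and deposited 1 table per assay of raw read counts per probe and well, without normalization. Here the counts of probes with 1 gene symbol were added, Neu1 and Atp6v1a having 2 probes each. Every gene with a mean of at least 10 counts was fitted (10191 WT and 1760 ST genes), and the library sizes of the fit were totals over these genes.

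Groups came from the sample labels. All wells of an assay were fitted together with edgeR 4.0.16 (TMM normalization, glmQLFit and glmQLFTest, R 4.3.3), with batch as a term, and p was adjusted by Benjamini-Hochberg over all genes of a comparison. L2FC of wells at or near 0 depends on the fit's prior count. Wells of a batch are technical replicates, so p measures the spread between wells; a fit with 1 summed library per rat stands beside it. CPM are counts scaled by the library total times its TMM factor. The fit was tested on simulated data.

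The members and lists were chosen with earlier results of these data known. In each role up to 3 genes were named with well values: those with the largest absolute L2FC among calls with the same sign in both batches and, where measured, in the ST assay. Main treatments for the hydrolase and pump contrast were the 4 with most members called, 5 after a tie at 21 (ranitidine, acetaminophen, caffeine, diclofenac and ketoconazole); other genes and treatments are given as summaries. Alternatives were DESeq2 1.42.0, RLE scaling, no count filter, each batch alone, vehicle of the same plate, no batch term, the ST assay, an absolute L2FC of at least 1, each replicate left out and, chosen after seeing the data, no TMM factors. Promoters were RefSeq's on GRCr8, and 5 members had none in the table.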

Additional observations from a re-analysis of the deposited data

Results flagged for a closer look

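The L2FC against vehicle differed between batch 1 and batch 2, by a test of the difference itself (interaction of batch and treatment, edgeR's quasi-likelihood test, adjusted over all genes), in 20 of the 420 tests on lysosomal genes at the high concentrations, beside 4.39% of all genes' tests. Differences are given as batch 2 minus batch 1, with adjusted p of 8.74e-05 to 0.0494. The batches differ in rat, library preparation and sequencing run, which cannot be told apart.

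Ranitidine, where 13.0% of all genes differed between the batches, gave 8 of them, all negative: Grn -1.01, Ctss -1.07, Hexa -0.65, Ctsd -0.64, Psap -0.63, Neu1 -0.55, Atp6v1a -0.46 and Ctsl -0.43. For Grn, Ctsd, Psap, Neu1, Atp6v1a and Ctsl this was a smaller rise in batch 2, for example 1.52 in batch 1 and 0.90 in batch 2 for Ctsd. Ctss had -0.54 in batch 1 and -1.59 in batch 2, and Hexa 0.15 and -0.48.

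Valproic acid (8.63% of all genes) gave 4: Ctss -1.50, Tpp1 -0.71, Hexa -0.52 and Atp6v1d -0.50. Tpp1 had 0.13 in batch 1 and -0.56 in batch 2, and its value over both batches did not pass the test. Diclofenac (10.1%) gave 3: Ctsl -0.76, Hexa -0.62 and Atp6v1d -0.45. Ctsl had 0.59 with diclofenac in batch 1 and -0.19 in batch 2.

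Caffeine (8.78%) gave 2, Ctss -2.02 and Atp6v1d -0.58. The Ctss L2FC with caffeine was -3.43 in batch 1 and -5.45 in batch 2, from treated wells with at most 18 counts. Single cases were Ctsl with indomethacin (-0.74, from 1.10 in batch 1 to 0.35 in batch 2), Atp6v1a with acetaminophen (0.43) and Hexa with sulfasalazine (0.55). For Atp6v1a with acetaminophen the adjusted p was 0.0486 by edgeR and 0.144 by DESeq2. No named gene had a well far from the others among the vehicle and medium wells of batch 2 (38 groups of 6 wells). Treated wells and wells of batch 1, with 3 in each group, were not screened in this way.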

How the results depend on the processing

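DESeq2 and RLE scaling kept every count of calls within 1.5 times. Totals that moved further, and some of the counts by direction, are these. The ST assay, with 15 genes to test in place of 30, gave 121 calls at the high concentrations (79 higher, 42 lower) against 219 (143 and 76), 14 at the low concentrations against 32, 3 with medium alone against 5, and 107 for high against low against 192. An absolute L2FC of at least 1 left 56 (35 higher, 21 lower), 2, 0 and 52. Batch 1 alone gave 45 lower calls at the high concentrations, 17 calls at the low ones and 1 with medium alone. A fit with 1 library per rat gave 12 calls at the low concentrations and 1 with medium alone. Without TMM factors the low concentrations gave 13 higher and 21 lower against 23 and 9. In batch 2 against vehicle of the same plate the low concentrations gave 49. Leaving out the batch term (no replicate block) kept these totals within 1.5 times, with 185 calls at the high concentrations, 22 at the low ones, 4 with medium alone and 170 for high against low. The block paired all wells of a batch, which share a rat.

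The medians of hydrolases and pump subunits moved by more than their spread between wells in these cases. Ranitidine: pump 0.90 became 1.14 in batch 1, 1.12 in batch 2 with vehicle of the same plate and 0.66 by ST. Ketoconazole: hydrolases 0.41 became 0.29 with vehicle of the same plate and 0.28 by ST, and pump 0.75 became 0.85 in batch 2, 1.00 with vehicle of the same plate and 1.24 by ST. Diclofenac: hydrolases -0.03 became -0.63 by ST and 0.11 without TMM factors, and pump 0.89 became 0.82 with no replicate block, 1.03 in batch 1, 1.02 in batch 2, 1.18 with vehicle of the same plate, 1.09 by ST and 1.03 without TMM factors. Caffeine: hydrolases -0.24 became -0.31 in batch 2, -0.43 with vehicle of the same plate, -0.13 by ST and -0.36 without TMM factors. Acetaminophen: hydrolases 0.19 became 0.048 with no filter on low counts and -0.22 without TMM factors, and pump 0.26 became -0.14 without TMM factors. ST measures 7 of the hydrolases and 3 of the pump subunits tested. The other causes were not tested.

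Leaving out each replicate in turn gave 205 to 221 calls at the high concentrations (135 to 143 higher, 70 to 84 lower), 24 to 38 at the low ones and 4 to 5 with medium alone, and the diclofenac pump median ranged from 0.84 to 0.96. It was not run for high against low, and leaving out vehicle wells was not run for the low concentrations. Among the single values, Atp6v0b with acetaminophen turned to -0.44 in batch 1, and Atp6v1f with acetaminophen to -0.083 without TMM factors. Genes near the filter, such as Atp6v0b, Mcoln1, Ctsa and Tfeb, had fewest counts, and Glb1 and Gusb could not be judged at this depth.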

Other observations

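Neu1 and Atp6v1a were each measured by 2 probes, and the values of each follow. In vehicle the Neu1 probes held 69.5 ± 5.9 and 103 ± 9.2 CPM (SD, n = 9 wells). They held 162 ± 21.7 and 249 ± 17.3 CPM with ketoconazole, and 34.6 ± 8.7 and 45.2 ± 8.2 CPM with caffeine (n = 6 wells each). The Atp6v1a probes held 50.6 ± 9.3 and 84.4 ± 8.9 CPM in vehicle and 96.0 ± 9.7 and 149 ± 31.9 CPM with ranitidine. With acetaminophen they held 38.9 ± 16.2 and 83.9 ± 21.4 CPM, so that the mean of the first probe lay lower than in vehicle and that of the second was close to it. By the ST assay, Glb1 gave 501 counts in all and Gusb 14, so that counts of both were low in either assay. Low expression and a weak probe cannot be told apart here.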
